A study of Arabidopsis thaliana with 24 samples.

Results

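The ATG1 kinase complex genes examined here are the 4 Arabidopsis loci listed as ATG1 kinase paralogs, AT3G61960, AT3G53930, AT2G37840 and AT1G49180, and the ATG101 locus AT5G66930. The rule names them by locus and holds no measured value, but they were chosen with earlier results of these data known. All 5 were among the 16552 genes with a value. Their transcripts were followed with Affymetrix Gene 1.1 ST arrays of the whole Arabidopsis transcriptome. The plants, aged 33 days, were WT (Col-0) or OX7.5, 1 line made in Col-0 in which the double 35S promoter drives NBR1 fused to a TAP tag. Some groups had been supplied with sulfur throughout (nS) and the others had spent the last 4 days in sulfur deficit (-S), and shoots and roots of both lines under both supplies made 8 groups with 3 biological replicates each, on 24 arrays. Where a label was silent on low sulphate the sample was taken as nS.

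Autophagy delivers cytoplasmic material to the vacuole in double-membrane autophagosomes. ATG1 is the serine/threonine kinase that starts the process, and it works in a complex with regulatory subunits, ATG13, ATG11 and ATG101. The TOR kinase holds the complex back when nutrients are plentiful, and the SnRK1 kinase promotes it when energy or nutrients run short. Autophagosomes then grow with the help of a phosphatidylinositol 3-kinase complex and of ATG8 proteins, which are attached to the membrane and bind cargo receptors such as NBR1.

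The values are log2 signals made with RMA, which corrects background, equalizes the distributions of the arrays and summarizes probes. Medians of the shoot arrays ran from 3.92 to 3.97 and those of the root arrays from 2.58 to 2.63, so that signals were compared between groups of 1 tissue only, and never between genes, whose probes differ in brightness. Of the tissue markers, 2 of 15 listed for shoots (LHCB4.1 and RCA, of photosynthesis) and 2 of 15 listed for roots (EXPA7 and EXPA18, expansins of root hairs) had a value. The mean signal of the shoot markers lay 5.94 to 6.57 above the array median in shoot arrays and -0.26 to 0.50 from it in root arrays, and that of the root markers lay 0.93 to 1.92 above the median in root arrays and below it in every shoot array. NBR1 had no probe set of its own in the annotation used, so its overexpression could not be checked here. The sample numbers of the nS arrays form a run apart from those of the -S arrays. If the runs were processed differently, that effect and the effect of -S cannot be told apart. In whole shoots and roots, fewer cells of a type and less RNA per cell cannot be told apart either.

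Each locus was represented by 1 probe set. In the TAIR10.1 assembly AT3G61960 lies on chromosome 3 from 22941765 to 22945329, AT3G53930 on chromosome 3 from 19966149 to 19970880, AT2G37840 on chromosome 2 from 15851726 to 15856334, AT1G49180 on chromosome 1 from 18184654 to 18187529 and AT5G66930 on chromosome 5 from 26725839 to 26727758. The gene table merges AT2G37850 into AT2G37840, so that the locus may cover a further gene model. The annotation used here does not say whether a probe set lies in an exon or a UTR. All loci but AT1G49180 lay above the array median in 12 of 12 shoot arrays and in 12 of 12 root arrays. AT1G49180 lay above it in 11 of 12 shoot arrays but in only 1 of 12 root arrays. No detection calls accompany the values, so the size of its differences in roots is uncertain.

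**Figure D1:**
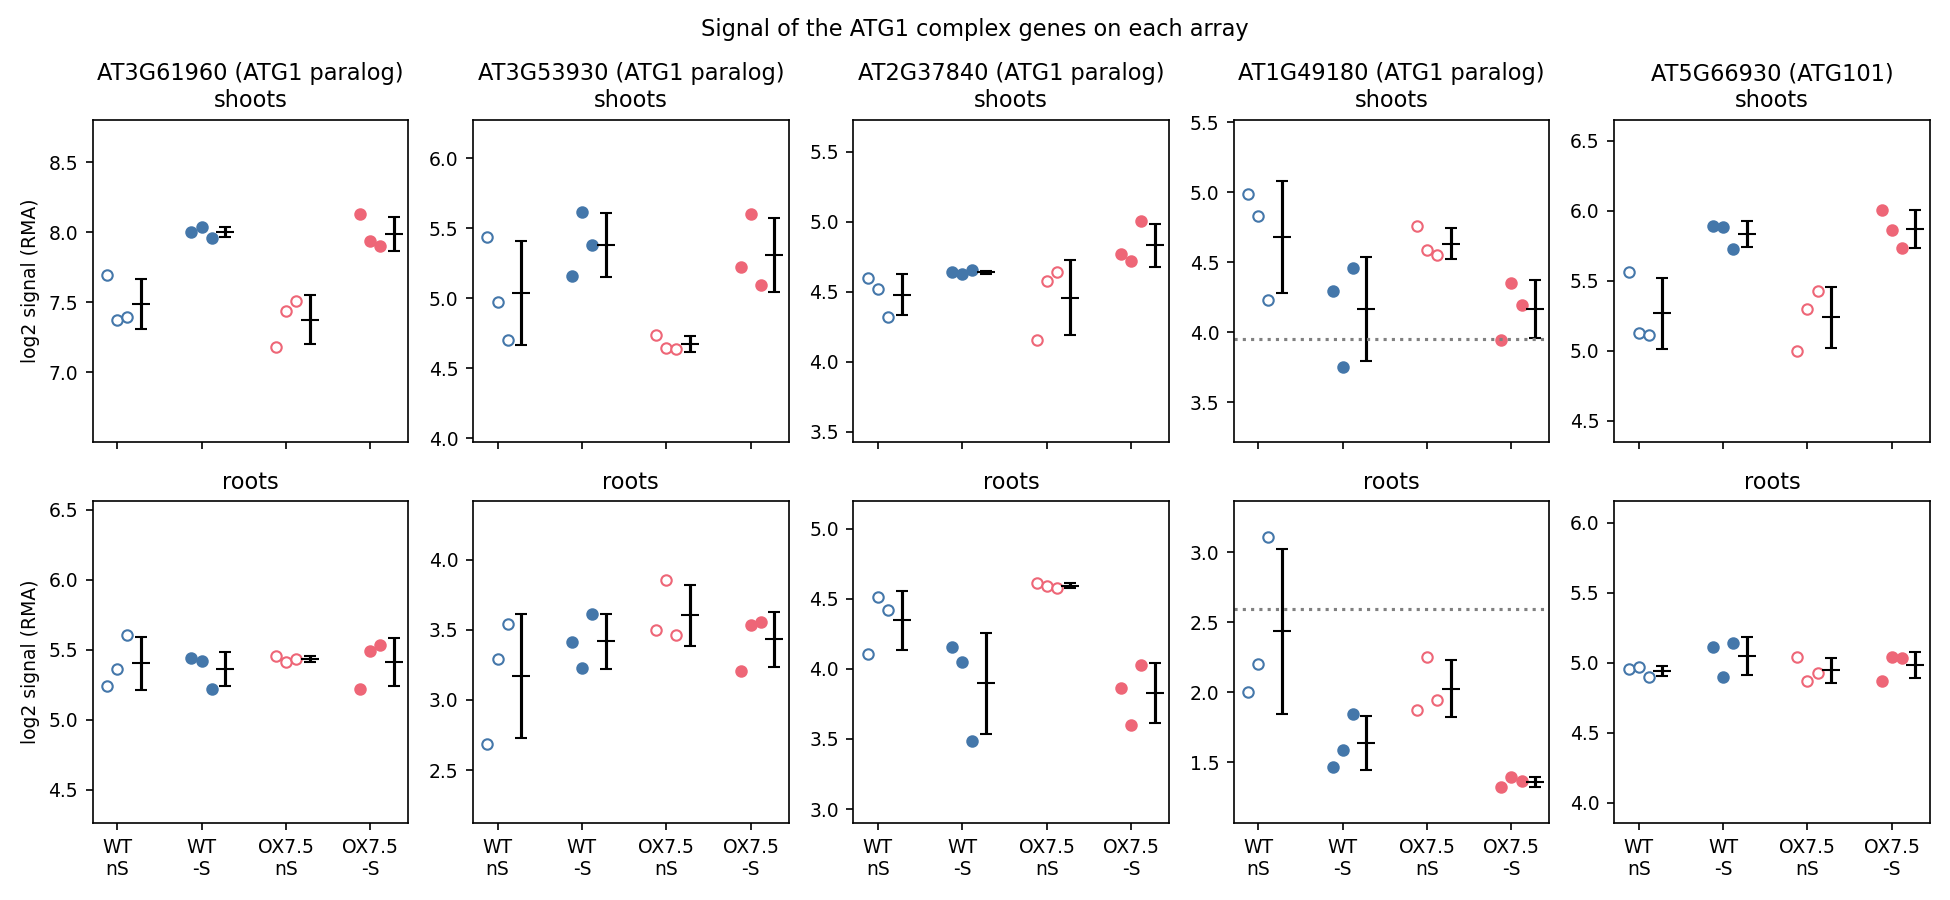
Log2 RMA signal of each ATG1 complex gene on each of the 24 arrays, in shoots (upper row) and roots (lower row), with nS arrays as open points, -S arrays as filled points, WT in blue and OX7.5 in red. Black marks give the mean and SD of the 3 arrays of a group, each panel spans the same number of log2 units, and the dotted line gives the median of the array medians for AT1G49180, whose root arrays lie below it apart from 1 nS array of WT.

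The kinase loci did not move alike under -S. In shoots AT3G61960 rose in both lines and AT3G53930 rose in OX7.5, while in roots AT2G37840 fell in OX7.5 and AT1G49180 fell in both lines. ATG101 rose in the shoots of both lines. At a Benjamini-Hochberg adjusted p under 0.05 from limma, 2 of 5 members rose and 0 fell in WT shoots, where 11.8% of all genes tested rose and 12.7% fell. In OX7.5 shoots 3 of 5 rose and 0 fell, against 7.78% and 7.37% of all genes. In WT roots 1 of 5 fell and 0 rose, against 10.1% and 12.5% of all genes, and in OX7.5 roots 2 of 5 fell and 0 rose, against 9.89% and 10.5%. The median response of the members on the log2 scale was 0.35 in WT shoots, 0.61 in OX7.5 shoots, -0.04 in roots of WT and -0.17 in those of OX7.5. The medians over all genes were -0.03, -0.00026, -0.06 and -0.02 in the same order.

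**Figure D2:**
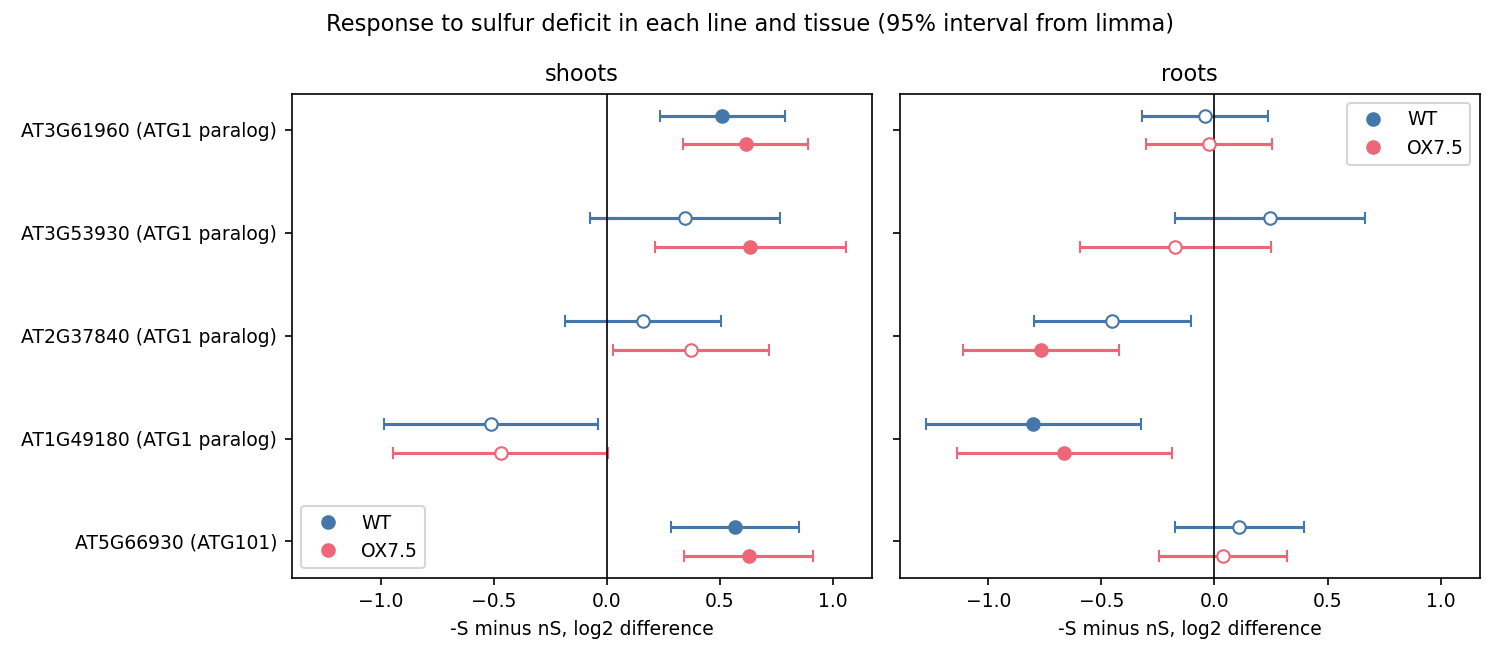
Difference of the log2 signal between -S and nS (horizontal axis) for each ATG1 complex gene in shoots and roots, in WT (blue) and OX7.5 (red), with the 95% interval from limma as bars. Filled points passed an adjusted p under 0.05, which holds for 5 of 10 responses in shoots, all above 0, and for 3 of 10 in roots, all below 0.

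AT3G61960, a kinase locus, lay at least 3.25 above the array median in every shoot array. In WT shoots its log2 signals were 7.70, 7.38 and 7.40 in nS and 8.0, 8.04 and 7.96 in -S. In OX7.5 shoots they were 7.18, 7.44 and 7.51 in nS and 8.13, 7.94 and 7.90 in -S. Every -S array of either line lay above every nS array of both lines, and the -S groups of both lines overlapped, as did the nS groups. The kinase transcript rose by a log2 difference of 0.51 in WT shoots (standard error 0.13, adjusted p = 0.0057 from limma), 1.42-fold, and 0.61 in the shoots of OX7.5 (standard error 0.13, adjusted p = 0.0021), 1.53-fold.

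In roots no such difference was seen for AT3G61960. Its signals in WT roots were 5.24, 5.36 and 5.60 in nS and 5.44, 5.42 and 5.22 in -S. In OX7.5 roots they were 5.46, 5.41 and 5.43 in nS and 5.22, 5.49 and 5.53 in -S. All 4 root groups overlapped with their neighbours in the order of the means. The responses were -0.04 in WT (95% interval -0.32 to 0.24, adjusted p = 0.87 from limma) and -0.02 in OX7.5 (95% interval -0.30 to 0.25, adjusted p = 0.95).

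AT3G53930, a further kinase locus, rose in OX7.5 shoots. There its signals were 4.74, 4.65 and 4.64 in nS and 5.23, 5.60 and 5.10 in -S, with no overlap. The difference was 0.63 (standard error 0.20, adjusted p = 0.035 from limma), 1.55-fold. The call was lost in 5 of the 6 fits that left out 1 array of OX7.5 shoots, with an adjusted p of up to 0.19, and also with all arrays when variances were not moderated (adjusted p = 0.069). In WT shoots the signals were 5.44, 4.97 and 4.70 in nS and 5.16, 5.61 and 5.38 in -S. Here nS replicate 1 lay within the range of the -S arrays, and the difference of 0.35 (95% interval -0.08 to 0.77, adjusted p = 0.26) did not pass the test. The lowest group of the shoots was OX7.5 in nS, but 1 of the WT arrays in nS fell within its range.

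In roots the replicates of AT3G53930 were most widely spread in WT in nS, where replicate 1 stood apart (SD 0.44, against 0.19 to 0.22 in the other 3 groups). The signals in WT roots were 2.68, 3.29 and 3.54 in nS and 3.41, 3.23 and 3.61 in -S. In OX7.5 roots they were 3.50, 3.86 and 3.46 in nS and 3.20, 3.54 and 3.56 in -S. The means ran from 3.17 in WT in nS to 3.61 in OX7.5 in nS, and all neighbours in this order overlapped. The responses were 0.25 in WT (95% interval -0.18 to 0.67, adjusted p = 0.45 from limma) and -0.17 in OX7.5 (95% interval -0.59 to 0.25, adjusted p = 0.68).

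AT2G37840 was the kinase locus with the largest difference between tissues in its response. In OX7.5 roots its signals were 4.61, 4.59 and 4.58 in nS and 3.86, 3.60 and 4.03 in -S. The 3 nS arrays lay close together (SD 0.016, n = 3), and all -S arrays lay below them. The log2 signal dropped by 0.77 with a standard error of 0.17 (adjusted p = 0.0014 from limma), a -S to nS ratio of 0.588. In WT roots the signals were 4.11, 4.51 and 4.42 in nS and 4.15, 4.05 and 3.49 in -S. The lowest nS array, at 4.11, lay below the highest -S array, at 4.15, so the groups overlapped. The difference of -0.45 (95% interval -0.80 to -0.11, adjusted p = 0.055 from limma) lay just outside the threshold.

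In shoots AT2G37840 had signals of 4.60, 4.52 and 4.32 in nS and 4.64, 4.63 and 4.65 in -S in WT. In OX7.5 shoots they were 4.15, 4.58 and 4.64 in nS and 4.77, 4.72 and 5.01 in -S. In both lines the -S arrays lay above the nS arrays without overlap, by a narrow margin in WT, and the -S arrays of OX7.5 lay above those of WT. The differences of 0.16 in WT (95% interval -0.18 to 0.51, adjusted p = 0.58 from limma) and 0.37 in OX7.5 (95% interval 0.03 to 0.72, adjusted p = 0.15) did not pass the test.

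AT1G49180, listed with the kinase paralogs, was the only member with negative differences in both tissues and both lines. In WT roots its signals were 2.00, 2.20 and 3.11 in nS and 1.47, 1.59 and 1.85 in -S. In OX7.5 roots they were 1.87, 2.26 and 1.95 in nS and 1.32, 1.39 and 1.37 in -S. All -S arrays lay below all nS arrays, and nS replicate 3 of WT stood far above the other root arrays. The signal dropped by 0.80 in WT roots (standard error 0.23, adjusted p = 0.013 from limma) and the drop in OX7.5 roots was 0.66 (standard error 0.23, adjusted p = 0.042), ratios of 0.574 and 0.631. Without nS replicate 3 of WT the difference in WT roots was -0.46 (adjusted p = 0.12) and without -S replicate 1 of WT it was -0.72 (adjusted p = 0.056), while the other 4 fits of this kind kept the call. The call in OX7.5 roots was lost in all 6 fits that left out 1 of its arrays, at an adjusted p of 0.054 to 0.17.

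In WT shoots the signals of AT1G49180 were 4.99, 4.83 and 4.23 in nS and 4.30, 3.75 and 4.46 in -S, with an overlap. In OX7.5 shoots they were 4.76, 4.59 and 4.55 in nS and 3.94, 4.36 and 4.19 in -S, with all -S arrays below all nS arrays. The differences of -0.51 in WT (95% interval -0.99 to -0.04, adjusted p = 0.12 from limma) and -0.47 in OX7.5 (95% interval -0.94 to 0.01, adjusted p = 0.20) were of similar size and did not pass the test in either line.

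ATG101 (AT5G66930), a regulatory subunit that works beside ATG13, resembled AT3G61960 in shoots. Its signals in WT shoots were 5.56, 5.13 and 5.11 in nS and 5.89, 5.88 and 5.72 in -S. In OX7.5 shoots they were 5.00, 5.30 and 5.43 in nS and 6.0, 5.87 and 5.73 in -S. All 6 -S arrays lay above all 6 nS arrays, while the lines overlapped in nS and in -S. The transcript rose by 0.57 in WT (standard error 0.14, adjusted p = 0.0030 from limma), 1.48-fold, and by 0.63 in OX7.5 (standard error 0.14, adjusted p = 0.0022), 1.55-fold.

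In roots ATG101 showed no such difference. Its signals in WT roots were 4.95, 4.97 and 4.90 in nS and 5.12, 4.90 and 5.14 in -S. In OX7.5 roots they were 5.04, 4.87 and 4.93 in nS and 4.87, 5.04 and 5.04 in -S. The 4 group means lay between 4.94 and 5.05, and all neighbouring groups overlapped. The responses were 0.11 in WT (95% interval -0.17 to 0.39, adjusted p = 0.64 from limma) and 0.04 in OX7.5 (95% interval -0.25 to 0.32, adjusted p = 0.91).

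The groups did not overlap between nS and -S for 3 of 5 members in WT shoots, all of them higher in -S, where 17.3% of all genes were higher and 18.1% lower without overlap. In OX7.5 shoots none of the 5 overlapped, 4 being higher and 1 (AT1G49180) lower, against 15.9% and 15.1% of all genes. In roots 1 of 5 in WT and 2 of 5 in OX7.5 were lower without overlap, against 18.5% and 17.9% of all genes. The methods define a -S DEG by a change of 1.5-fold or more with a p, read as unadjusted, under 0.05. By this rule 0 of 5 members were upregulated in WT shoots and 3 of 5 in OX7.5 shoots, against 8.91% and 6.14% of all genes. In roots 1 of 5 was downregulated in WT and 2 of 5 in OX7.5, against 7.67% and 7.44% of all genes. AT3G61960 and ATG101 rose in WT shoots by less than that fold.

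The 2 measured shoot markers also moved in the shoots. Their mean signal above the array median was 6.36 to 6.57 in WT arrays in nS and 5.94 to 6.03 in WT arrays in -S, and 1 of the 2 passed limma's test as a fall in WT and 0 in OX7.5 (adjusted p under 0.05), where the OX7.5 arrays had 6.40 to 6.48 in nS and 5.96 to 6.16 in -S. Of all genes 12.7% fell in WT shoots and 7.37% in OX7.5 shoots. In roots 1 of the 2, RCA, fell in each line, against 10.1% of all genes in WT and 9.89% in OX7.5. Its group means in roots, 1.79 to 2.33, lay below the array medians. This fall was lost in 5 of 6 fits that left out 1 array in WT roots and in 3 of 6 in OX7.5 roots. The root markers stayed below the array median in all shoot arrays. The part of these markers in the response of the ATG1 complex genes was not tested.

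With the lines averaged, a comparison added after the results of the single lines had been seen, more members passed the test in shoots. In shoots AT3G61960 rose by 0.56 (adjusted p = 4.5e-05 from limma), ATG101 by 0.60 (adjusted p = 3.0e-05) and AT3G53930 by 0.49 (adjusted p = 0.011), while AT1G49180 fell by 0.49 (adjusted p = 0.023). The call of AT1G49180 in shoots held in 7 of the 12 fits that left out 1 shoot array, whereas those of the other 3 held in 12 of 12, and it was also lost with variances not moderated (adjusted p = 0.052). In the mean of both lines 14.7% of all genes rose and 15.3% fell in shoots. In roots AT2G37840 fell by 0.61 (adjusted p = 2.4e-04) and AT1G49180 fell by 0.73 (adjusted p = 9.5e-04), both in 12 of 12 such fits, where 14.8% of all genes fell and 15.9% rose.

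The comparison of the responses between tissues asked whether a locus answered -S differently in roots than in shoots of the same line. All 5 members had a smaller or more negative response in roots in both lines. The median of this difference over all genes was -0.0056 in WT and -0.000985 in OX7.5. In WT the sign depended on single arrays for AT3G53930 and AT1G49180. Their differences reached 0.084 and 0.047 in fits that left out 1 array. In OX7.5 the difference of the responses, roots minus shoots, was -1.14 for AT2G37840 (standard error 0.24, adjusted p = 0.0014 from limma), -0.64 for AT3G61960 (standard error 0.19, adjusted p = 0.022) and -0.59 for ATG101 (standard error 0.19, adjusted p = 0.039). It was -0.81 for AT3G53930 (adjusted p = 0.059) and -0.19 for AT1G49180 (adjusted p = 0.77). Thus 3 of 5 passed the test in OX7.5, where 8.48% of all genes had a lower response in roots.

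In WT only AT3G61960 passed this test, with a difference of -0.55 (standard error 0.19, adjusted p = 0.038 from limma), where 10.3% of all genes had a lower response in roots. AT2G37840 had -0.61 (adjusted p = 0.067), ATG101 had -0.46 (adjusted p = 0.099), AT1G49180 had -0.29 (adjusted p = 0.60) and AT3G53930 had -0.10 (adjusted p = 0.86). With the lines averaged the difference was -0.87 for AT2G37840 (adjusted p = 2.5e-04), -0.60 for AT3G61960 (adjusted p = 0.0013) and -0.52 for ATG101 (adjusted p = 0.0049), each in 24 of the 24 fits that left out 1 array. In that mean 14.5% of all genes had a lower response in roots. The call of AT3G61960 in WT held in 5 and that of ATG101 in OX7.5 in 3 of 12 fits that left out 1 array of the line.

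**Figure D3:**
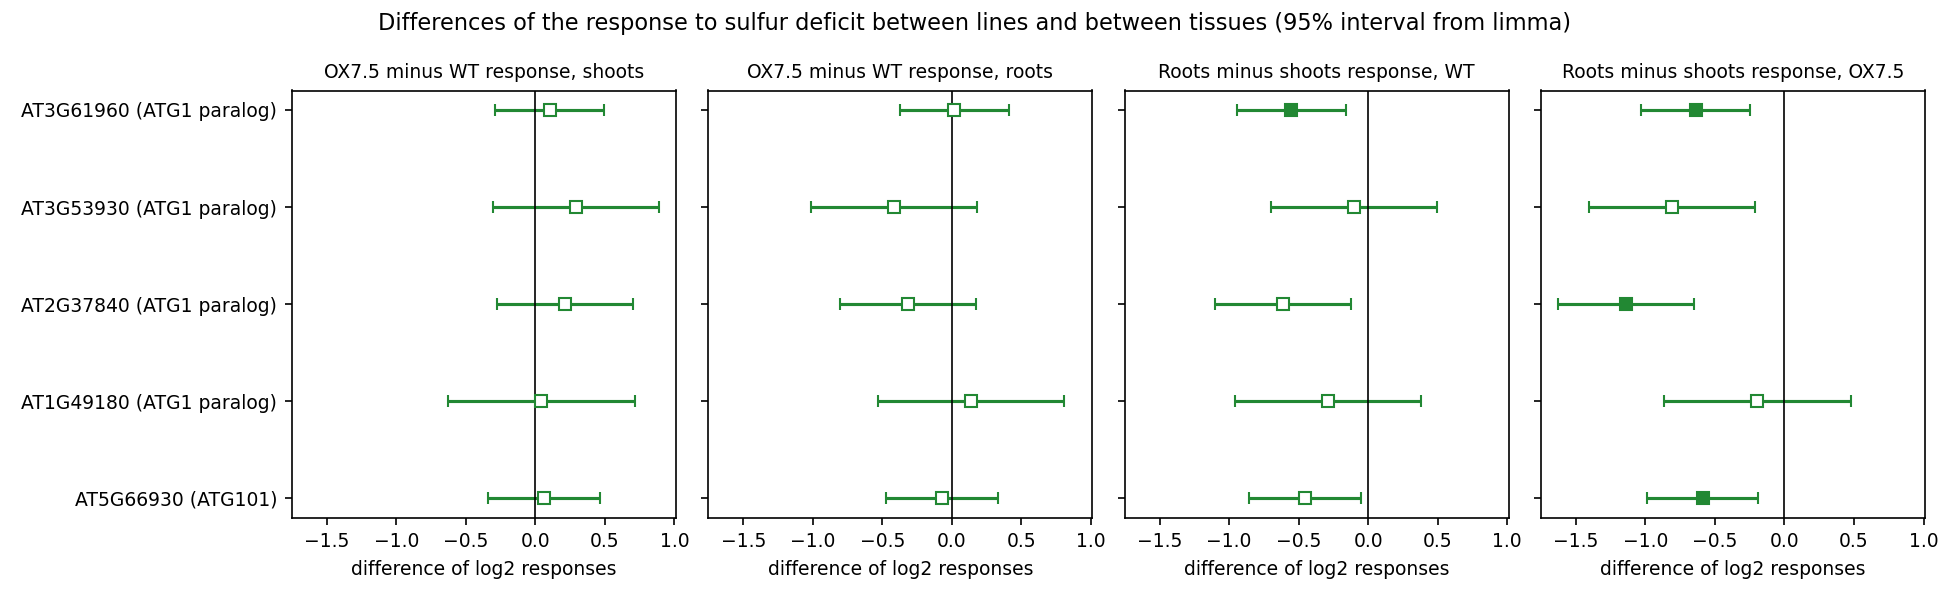
Differences of the log2 response to -S (horizontal axis) between OX7.5 and WT in shoots and in roots (left panels) and between roots and shoots in WT and in OX7.5 (right panels) for each ATG1 complex gene, with the 95% interval from limma as bars. Filled squares passed an adjusted p under 0.05, which holds for none of the line differences, for 1 tissue difference in WT and for 3 in OX7.5.

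The comparison of lines asked whether the NBR1 overexpressor differed from WT in the level of these genes or in their response to -S. None of the 5 members passed an adjusted p under 0.05 from limma in any of the comparisons of OX7.5 with WT, nor did any without moderation of the variances. In nS shoots 1.7% of all genes passed in either direction, in nS roots 0.852%, in -S shoots 0.0785% and in -S roots 0%. At an unadjusted p under 0.05 the counts of members were 0 in nS shoots, 1 in nS roots, 0 in -S shoots and 0 in -S roots, where 10.8%, 13.9%, 6.14% and 3.82% of all genes passed. The differences of the members ran from -0.36 to -0.02 in nS shoots, from -0.41 to 0.43 in nS roots, from -0.07 to 0.19 in -S shoots and from -0.27 to 0.05 in -S roots.

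The largest line differences belonged to the kinase loci AT3G53930 and AT1G49180 in nS. AT3G53930 had -0.36 in nS shoots (95% interval -0.78 to 0.06, adjusted p = 0.58 from limma) and 0.43 in nS roots (95% interval 0.01 to 0.86, unadjusted p = 0.044, adjusted p = 0.34). Without nS replicate 1 of WT in the same tissue these differences were -0.16 and 0.19. AT1G49180 had -0.41 in nS roots (95% interval -0.89 to 0.06, adjusted p = 0.45), and without nS replicate 3 of WT this difference was -0.08. AT2G37840 lay above WT in OX7.5 without overlap in nS roots and in -S shoots, where 7.14% and 5.72% of all genes were, with differences of 0.25 (adjusted p = 0.56) and 0.19 (adjusted p = 0.97). AT1G49180 lay below WT in OX7.5 without overlap in -S roots, as did 5.25% of all genes, with a difference of -0.27 (adjusted p = 1.0).

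The response to -S did not differ between the lines beyond the threshold for any member. In shoots the response in OX7.5 minus that in WT ran from 0.04 for AT1G49180 to 0.29 for AT3G53930, and 0 of 5 members passed an unadjusted or an adjusted p under 0.05 from limma, against 8.94% and 0.538% of all genes. In roots it ran from -0.42 for AT3G53930 to 0.14 for AT1G49180, and again 0 of 5 passed, against 9.64% and 0.0604%. The intervals were wide. For AT3G53930 they reached from -0.31 to 0.89 in shoots and from -1.01 to 0.18 in roots, so that the call of its rise in OX7.5 shoots and not in WT shoots does not show a difference between the lines. For AT2G37840 the line difference in roots was -0.31 (95% interval -0.80 to 0.17).

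Genes most like each member were sought over the 24 arrays by Pearson's r of the signals after subtraction of the tissue means, so that r includes the response to -S. For AT3G61960 these were AT4G00700 and AT4G33565 (r of 0.89 each) and ATG101 (r of 0.89). For ATG101 they were AT5G65750, AT2G31390 and the beta-glucosidase gene BGLU31, each with an r of 0.89. AT3G53930 was most like AT4G21660 (r of 0.85), AT5G11500 (0.82) and AT2G25910 (0.82), and AT2G37840 was most like AT3G17340 (0.84), AT3G13040 (0.84) and AT3G54440 (0.84). AT1G49180 was most like AT1G52750 (0.88), the xyloglucan endotransglucosylase gene XTH16 (0.82) and AT1G27210 (0.82). Among the members AT3G61960 and ATG101 were thus the only pair in which 1 was among the 3 genes most like the other.

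Of the other subunits of the ATG1 complex only AT3G18770, 1 of 3 listed, had a value. Its responses to -S were 0.09 in WT shoots, -0.01 in OX7.5 shoots, -0.18 in roots of WT and -0.06 in roots of OX7.5, and none passed the test (adjusted p of 0.59 to 0.98 from limma). Its widest 95% interval bounds were -0.60 in WT roots and 0.51 in WT shoots.

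Among the regulators upstream, 2 of 8 listed genes of the TOR complex and its targets and 3 of 6 of the SnRK1 complex had a value. RAPTOR2, a gene for a TOR complex subunit that binds substrates, rose in WT roots by 1.06 (adjusted p = 0.0058 from limma) and had 0.04 in OX7.5 roots (adjusted p = 0.95), and the line difference of -1.02 did not pass the test (adjusted p = 0.39). In WT roots nS replicate 1 had the lowest RAPTOR2 signal, 1.80, below the array median. Without this array the rise in WT was 0.57 and did not pass the test (adjusted p = 0.065). RAPTOR1, the other measured gene of the TOR list, passed the test in roots of neither line. Its means were 6.31 in nS and 6.51 in -S in WT roots, and 6.59 in nS and 6.38 in -S in OX7.5 roots. AKINBETA1, for a beta subunit of SnRK1, fell in roots by 0.74 in WT (adjusted p = 1.7e-04) and by 0.84 in OX7.5 (adjusted p = 4.1e-05). In shoots none of these 5 genes passed the test.

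Among the genes that act downstream, several ATG8 genes rose. All 9 listed ATG8 genes had a value, and 6 rose in WT shoots, 5 in OX7.5 shoots, 3 in roots of WT and 5 in roots of OX7.5, while none fell. Of all genes 11.8%, 7.78%, 12.5% and 10.5% rose in the same order, and 12.7%, 7.37%, 10.1% and 9.89% fell. Fits that left out 1 array of the groups compared lost some of these rises. In WT roots ATG8H was lost in 3 of 6 fits and a further ATG8 gene in 2 of 6. In OX7.5 shoots ATG8E was lost in 3 of 6 and ATG8G in 2 of 6, and in OX7.5 roots an ATG8 gene in 1 of 6. The median response of the 9 was 1.03 in WT shoots and 0.72 in OX7.5 shoots, against 0.35 and 0.61 for the ATG1 complex genes. In roots it was 0.09 in WT and 0.57 in OX7.5. The response did not differ between the lines past the threshold for any of the 9, in shoots or in roots. Of all genes 0.538% in shoots and 0.0604% in roots passed that test. ATG8H rose most in shoots, by 1.94 in WT (adjusted p = 1.9e-06 from limma) and 1.55 in OX7.5 (adjusted p = 7.9e-05). ATG8E rose most in roots, by 1.55 in WT (adjusted p = 3.7e-05) and 1.94 in OX7.5 (adjusted p = 2.1e-06). The response in roots was lower than in shoots for 3 of the 9 ATG8 genes in WT and higher for 0, while in OX7.5 it was lower for 1 and higher for 1. Of all genes 10.3% in WT and 8.48% in OX7.5 had a lower response in roots, and 22.5% and 16.4% were called in either direction. ATG8G was lower in roots in both lines, with differences of -1.31 in WT (adjusted p = 0.0015) and -0.85 in OX7.5 (adjusted p = 0.040). ATG8E was the gene with a higher response in roots of OX7.5, by 1.08 (adjusted p = 0.035). Both calls in OX7.5 depended on single arrays, being lost in 8 of 12 fits for ATG8G and in 7 of 12 for ATG8E that left out 1 array of the line. In WT the call of ATG8H was lost in 3 of 12 such fits. ATG8G and the tally of tissue differences were added after the values had been seen.

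Of the remaining groups, AT4G08540, 1 of 2 measured of 6 listed genes of the phosphatidylinositol 3-kinase complex, rose in WT roots by 0.53 (adjusted p = 0.015 from limma), a call lost without nS replicate 1 (adjusted p = 0.11) or -S replicate 2 of that group (adjusted p = 0.082). The 2 of 9 listed conjugation enzymes with a value did not pass the test in any line or tissue. None of the 10 listed ATG9, ATG2 and ATG18 genes had a value here. Altogether 19 of 52 listed genes of autophagy and of its TOR and SnRK1 regulators were measured beside the 5 members. Of these 6 rose in WT shoots, 5 in OX7.5 shoots, 5 in roots of WT and 5 in roots of OX7.5. The shares of all genes that rose were 11.8%, 7.78%, 12.5% and 10.5% in the same order. None fell in shoots, where 12.7% of all genes fell in WT and 7.37% in OX7.5. In roots 1, the SnRK1 gene AKINBETA1, fell in each line, against 10.1% of all genes in WT and 9.89% in OX7.5.

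Of 14 listed markers of sulfur deficit 2 had a value, BGLU28 and SDI2 (AT1G04770). In roots BGLU28 rose by 4.09 in WT (adjusted p = 2.3e-09 from limma) and by 3.86 in OX7.5 (adjusted p = 7.0e-09), whereas SDI2 rose by 1.0 in OX7.5 (adjusted p = 2.8e-04) and had 0.35 in WT (adjusted p = 0.20). Neither marker passed the test of a line difference in the root response, against 0.0604% of all genes. Root means of SDI2 were 5.09 in nS and 5.44 in -S in WT, and 4.29 and 5.29 in OX7.5. Its line difference in nS roots, -0.80, passed the test but was lost in 5 of 6 fits that left out 1 array. In nS the root means of BGLU28 lay below the array medians, at 1.19 in WT and 1.44 in OX7.5, so the size of its rise is uncertain. In shoots, where members of the ATG1 complex rose, neither marker passed the test in either line. There the group means of both markers lay below the array medians, at 2.64 to 2.83 for BGLU28 and 3.08 to 3.90 for SDI2. At such low signals the missing calls do not show that the shoots lacked a response to -S. BGLU28 had 0.15 in WT shoots (adjusted p = 0.83) and -0.01 in OX7.5 shoots (adjusted p = 0.99), and SDI2 had -0.46 (adjusted p = 0.076) and 0.13 (adjusted p = 0.75).

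**Figure D4:**
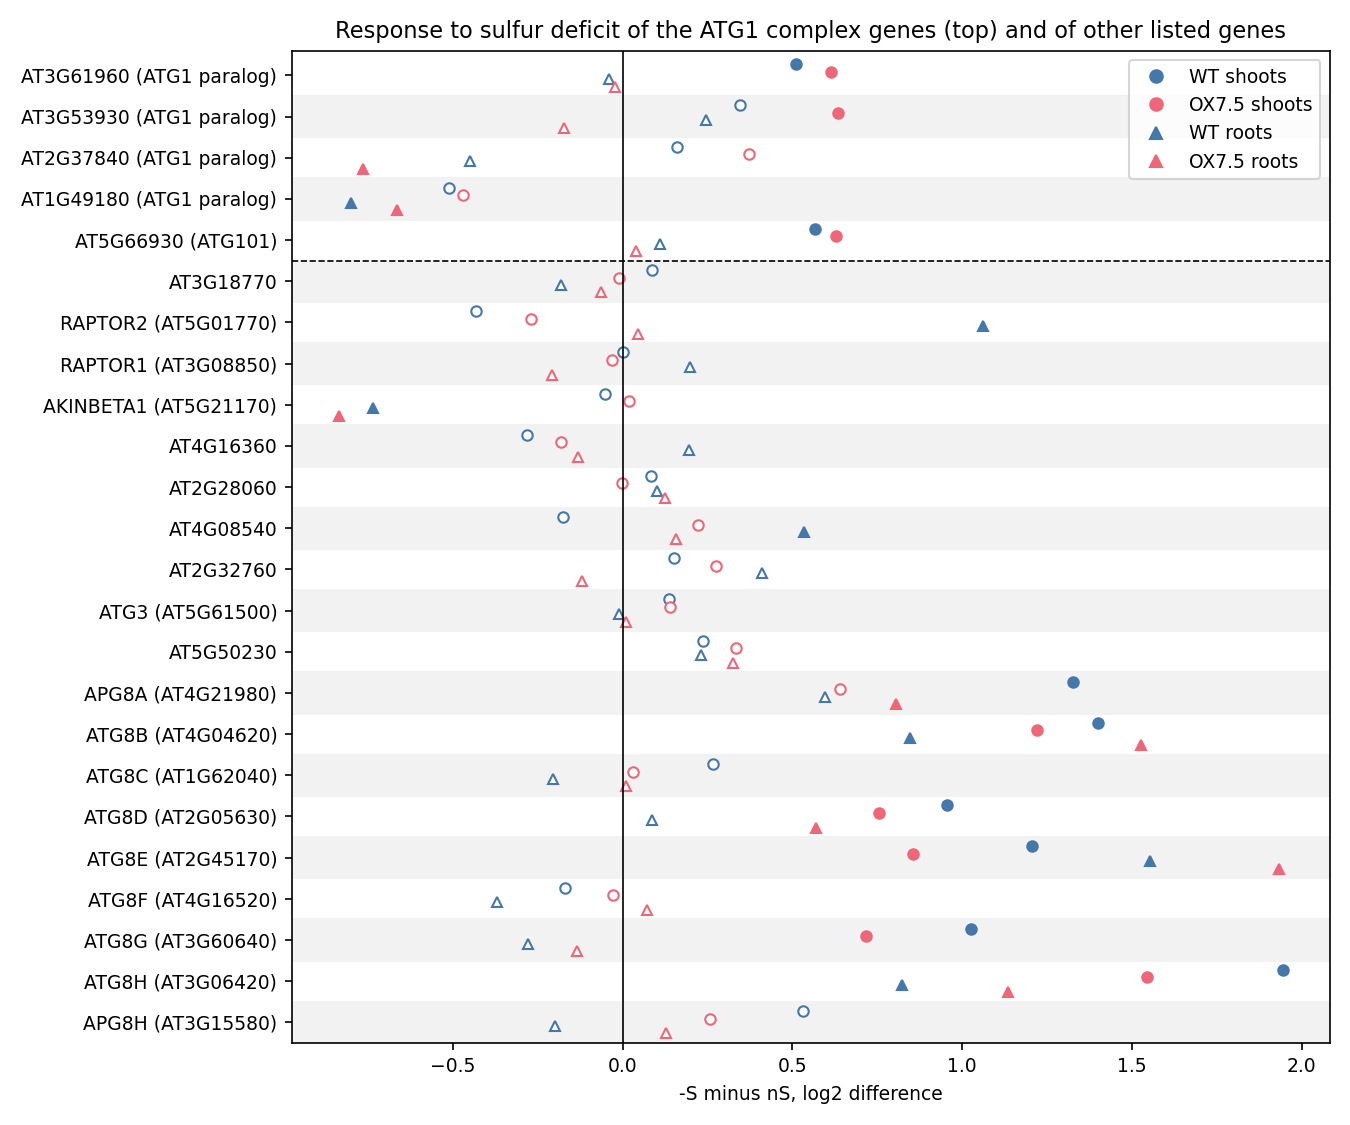
Difference of the log2 signal between -S and nS (horizontal axis) for the ATG1 complex genes (above the dashed line) and for 19 other measured genes of autophagy and of its TOR and SnRK1 regulators, in shoots (circles) and roots (triangles) of WT (blue) and OX7.5 (red). Filled symbols passed an adjusted p under 0.05 from limma, and the ATG8 genes, at the bottom, hold most of the filled symbols on the right, up to 1.94 for ATG8H in WT shoots and ATG8E in OX7.5 roots.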

How the data were processed

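The authors hybridized shoot and root RNA to 24 arrays and deposited log2 probe-set values made with RMA in Partek, with versions and settings not given in the sources used here. The sample descriptions mention soil, whereas the methods describe hydroponic culture. Probe sets with exactly 1 gene were named through the platform annotation and the TAIR10.1 gene table, and the brightest was kept for each of 16552 genes. R 4.3.3 and limma 3.58.1 fitted 1 mean per group to all arrays, with empirical Bayes moderation and Benjamini-Hochberg adjustment over all genes. Intervals are at 95%. The p-values rest on the spread between biological replicates within groups, pooled for each gene over all groups of both tissues and moderated over all genes. They do not measure the spread of the 3 replicates of a single group. The methods' p was read as unadjusted. The fit was tested on simulated data. The members and the gene lists were chosen with earlier results of these data known, and the averages of both lines were added after the results of the single lines. Named genes are the 5 members, the measured genes listed with them as other subunits, and the 3 genes most like each member. Up to 2 called genes of each further list of autophagy genes or regulators are named by largest response, and RAPTOR1 was added beside RAPTOR2. Alternatives were the thresholds of the methods, dim probe sets, array medians, 1 tissue alone, the variance model, probe-set choice, a replicate block and leaving out each array.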

Additional observations from a re-analysis of the deposited data

Results flagged for a closer look

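The responses to -S of 3 members differed between roots and shoots in at least 1 line by limma's contrast of the 2 responses with Benjamini-Hochberg adjustment. A lower response in roots was called for 10.3% of all genes in WT, 8.48% in OX7.5 and 14.5% with the lines averaged. The averages were added after the results of the single lines had been seen. For AT3G61960 the response in roots minus that in shoots was -0.55 in WT (adjusted p = 0.038), -0.64 in OX7.5 (adjusted p = 0.022) and -0.60 with the lines averaged (adjusted p = 0.0013). For AT2G37840 it was -1.14 in OX7.5 (adjusted p = 0.0014) and -0.87 with the lines averaged (adjusted p = 2.5e-04), and for ATG101 (AT5G66930) it was -0.59 in OX7.5 (adjusted p = 0.039) and -0.52 with the lines averaged (adjusted p = 0.0049). In WT neither of these loci passed the test, with -0.61 for AT2G37840 (adjusted p = 0.067) and -0.46 for ATG101 (adjusted p = 0.099). In AT2G37840 the difference joined a fall in roots to a positive difference in shoots that did not pass the test, whereas AT3G61960 and ATG101 rose in shoots and had responses between -0.04 and 0.11 in roots. The call of AT3G61960 in WT held in 5 of 12 fits that left out 1 array of the line and that of ATG101 in OX7.5 in 3 of 12, and neither passed the test with a replicate block (adjusted p = 0.055 and 0.059). Those with the lines averaged held in all 24 such fits. Array medians differ between shoots and roots, and how the tissues were normalized is not given in the sources used here, so each value is a difference of differences made within a tissue.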

How the results depend on the processing

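Of 9 other settings, the counts of members past the threshold moved by over 1.5 times in these cases. With the thresholds of the methods the count fell from 2 to 0 in WT shoots and from 4 to 1 in shoots with the lines averaged. In OX7.5 roots it fell from 2 to 1 (without AT1G49180) with the arrays of 1 tissue alone or with variances not moderated, and with array medians subtracted or dim probe sets left out it went from 1 to 2 in WT roots (AT2G37840 added). For the tissue difference in WT the count went from 1 to 2 without dim probe sets. Leaving these out also raised the share of all genes called in either direction. It went from 22.6% to 36.7% in WT roots and from 22.5% to 37.5% for the tissue difference in WT. With array medians subtracted the share in WT roots was 22.5%, and with variances not moderated it was 19.4% in OX7.5 roots against 20.4%. With the thresholds of the methods the count for the tissue difference in WT stayed at 1, but AT2G37840 took the place of AT3G61960. A replicate block turned that count from 1 to 0 (AT3G61960, adjusted p = 0.055 from limma), and under the block ATG101 (AT5G66930) lost its tissue difference in OX7.5 (0.059) and AT3G53930 gained one (0.046). Within a tissue, replicates with the same number did not deviate together (mean r of -0.02 to 0.06 over the genes). The numbers were therefore not taken to pair the groups of a tissue. Whether shoot and root arrays with the same number came from the same plants was not checked. The tissue differences treat them as independent. Except where construction shows it, the cause of these changes was not tested.

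Leaving out 1 array at a time gave counts of 1 in all fits for OX7.5 roots, 0 (without nS replicate 3) to 2 for WT roots, 0 to 2 for the tissue difference in WT and 1 to 4 for that in OX7.5, with 1 left without OX7.5 shoots nS replicate 1, shoots -S replicate 1 or roots -S replicate 1. The sign changed only in differences that did not pass the test. For AT3G61960 the response ranged from -0.12 to 0.061 in WT roots, from -0.084 to 0.074 in OX7.5 roots and from -0.073 to 0.018 with the lines averaged in roots, and the line difference from -0.00057 to 0.17 in shoots and from -0.084 to 0.11 in roots. For AT3G53930 the response ranged from -0.085 to 0.13 with the lines averaged in roots and the tissue difference in WT from -0.34 to 0.084. For AT1G49180 the line difference ranged from -0.17 to 0.27 in shoots and from -0.20 to 0.36 in roots, and the tissue difference in WT from -0.51 to 0.047. For ATG101 (AT5G66930) the line difference in shoots ranged from -0.086 to 0.15. The number of arrays, 3 in a group, limits the precision, and AT1G49180 in roots is limited by its low signal.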

Other observations

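In shoots AT3G61960 and ATG101 (AT5G66930) also deviated together within the groups. After subtraction of the group means, Pearson's r of their log2 signals over the 12 shoot arrays was 0.97 and Spearman's rho was 0.96. Without the 2 arrays farthest from the median of AT3G61960, r was 0.94 over 10 arrays. Of all 16551 other genes ATG101 had the highest such r with AT3G61960, 11 genes had an r over 0.9, and the median over all genes was -0.00073. In WT in nS replicate 1 was the highest of its group in both genes, and in OX7.5 in nS replicate 1 was the lowest in both. Over the 12 root arrays the same measure was 0.07. RMA normalizes arrays jointly, so their values are not independent, the pair was noticed in these data, and r is given as a description with no test. Among the other pairs of members this r ran from -0.05 to 0.57 in shoots and from -0.28 to 0.79 in roots, the highest in roots being AT3G53930 with AT1G49180, the dim locus.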
